A study of Mus musculus with 15 samples.

Results

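Bulk RNA of injured mouse cortex was compared between cells retained on CD45 beads and the flow-through of CD45 and CD31 beads, labelled as all other cells of the cortex. The comparison used the wild-type libraries of the series by their labels, 3 of CD45 cells and 4 of flow-through, 7 of 15 libraries in all. All mice behind these libraries carried EphA4 alleles flanked by loxP sites and no stated Cre (EphA4f/f-WT), and all received a moderate controlled cortical impact, a mechanical injury of the exposed brain, over the right parietal cortex. The ipsilateral cortex was dissociated 1 day after the impact. The labels give no uninjured group, no ages and no animal identities, so the libraries of a fraction are called replicates by number only, p-values measure the spread between these libraries, and CD45 and flow-through libraries may come from the same animals. The comparison asks which receptors, metabolic enzymes, transcription factors and secreted factors each fraction held at that time, and it measures the difference between fractions, not a response to injury.

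CD45 (Ptprc) is a receptor tyrosine phosphatase carried by all nucleated blood-derived cells and by microglia, the resident macrophages of the brain. In the first day after a cortical impact, neutrophils and then monocytes enter the injured tissue, and microglia become reactive. The flow-through of such a sort holds mainly glia, neurons and their precursors. CD31 (Pecam1) is best known as an endothelial surface protein, and platelets, monocytes and neutrophils carry it too.

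Ptprc measured 1242, 1043 and 1101 CPM in CD45 replicates 1 to 3 and 0.952, 0.994, 0.896 and 0.691 CPM in flow-through replicates 1 to 4. Each CD45 library therefore lay far above each flow-through library, and the log2 fold change was 10.32 ± 0.17 (SE, adjusted p = 1.6e-12 by edgeR). CPM are read counts scaled to a common library size, here with TMM, a method that assumes that most genes do not differ. A fold change here is always CD45 over flow-through, so that a positive log2 value is higher in CD45. In bulk RNA, fewer cells of a type and less RNA per cell cannot be told apart, and this holds for every difference given. One further library labelled wild-type flow-through, replicate 5, stands in the deposited CD45 table and measured 906 CPM of Ptprc without TMM, against at most 1.22 CPM in the other wild-type flow-through libraries, and was left out. Without TMM its neutrophil markers (lists below) summed to 7370 CPM, against 7690 to 9900 CPM in wild-type CD45 and 7.99 to 14.9 CPM in the other wild-type flow-through libraries. Its oligodendrocyte markers summed to 553 CPM, against 397 to 1530 and 25400 to 35300 CPM in turn. Entered as labelled, this library lowered the genes called to 825 higher in CD45 and 4820 higher in the flow-through, and the genes past 4-fold to 0 and 0 (edgeR, with 40 and 2792 at an unadjusted p under 0.05).

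The 7 libraries held 21014465 to 25939445 counts. Genes of the mitochondrial genome took 0.747 to 1.11% of counts in CD45 libraries and 3.04 to 4.30% in flow-through libraries. Of 17506 genes tested, 6996 (40.0%) were higher in CD45 and 7293 (41.7%) higher in the flow-through at an edgeR adjusted p under 0.05. Past a 4-fold difference, tested as such, 2286 (13.1%) were higher in CD45 and 3436 (19.6%) higher in the flow-through. These shares are the background for every count of list members below. With most genes called, the zero of the scale depends on the scaling: the median over all genes, as log2 fold change, was -0.02 with TMM, -0.36 with upper-quartile scaling and -0.64 with library totals only, and CD45 held 49.0%, 38.2% and 30.3% of calls in turn. Both alternatives lowered the log2 values, so positive differences smaller than these shifts have no fixed direction. Small negative differences moved further from 0 instead, such as that of Cebpd, a C/EBP factor, at -0.472, -0.815 and -1.093 in turn. The fractions were deposited as separate tables, and fraction and any batch of library preparation or sequencing cannot be told apart. In the EphA4f/f-VeCadCreERT2 mice, whose tamoxifen-inducible Cre is driven by the endothelial VE-cadherin promoter (KO, 4 CD45 and 3 flow-through libraries), 13433 of 17030 genes (78.9%) were called between fractions, and 5480 of the 5484 genes tested there that were past 4-fold in wild type were called in the same direction. The genotype by fraction interaction called 0 of 18098 genes (0.0%, edgeR, with 1305 at an unadjusted p under 0.05).

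Marker lists of 18 cell types, chosen with earlier results of these data known, were read against the labels. In CD45 libraries the summed level of 10 neutrophil markers was 9452 to 13352 CPM, of 10 monocyte and macrophage markers 4841 to 9755 CPM and of 10 microglia markers 5127 to 5555 CPM, against 6.84 to 12.1, 1.51 to 3.72 and 128 to 139 CPM in the flow-through. Csf3r, the receptor for granulocyte colony-stimulating factor, averaged 4332 ± 776 CPM in CD45 (SD, n = 3), and Cx3cr1, the fractalkine receptor of microglia and monocytes, 858 ± 147 CPM. T and NK cell markers, all 10 higher in CD45, summed to 33.1 to 59.4 CPM there, and the 6 B cell markers to 109.9 to 189 CPM. The flow-through held 20533 to 29925 CPM of 10 oligodendrocyte markers, 6149 to 7945 CPM of 10 astrocyte markers and 503 to 690.2 CPM of 11 neuron markers, and every one of these 31 genes was higher there. Sall1, a microglia factor on the list, went against it at 50.1 ± 9.07 CPM in CD45 and 72.1 ± 6.08 CPM in the flow-through (SD, n = 3 and 4).

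**Figure D1:**
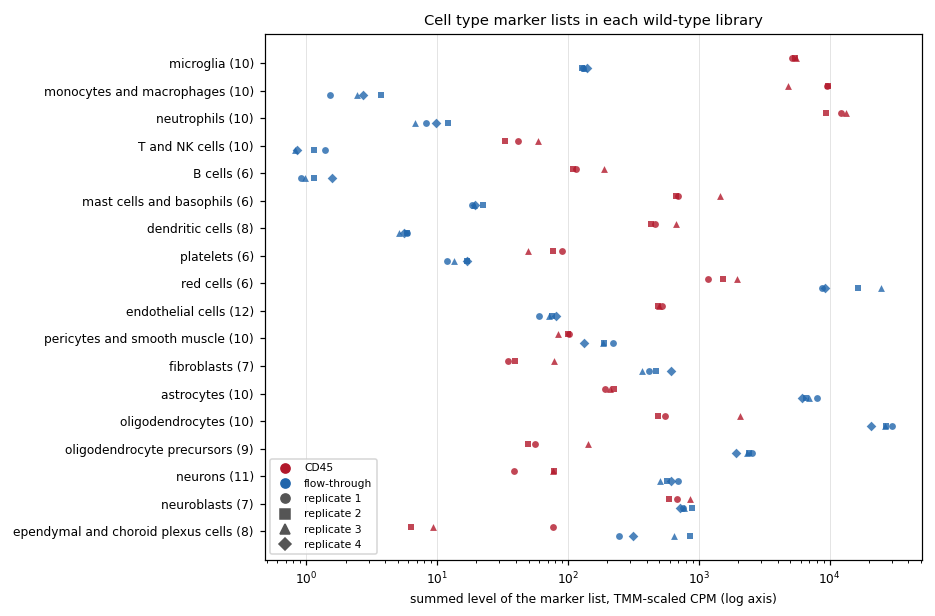
Summed TMM-scaled CPM of each cell type marker list (number of genes in parentheses) on a log axis, 1 point per wild-type library, red for CD45 and blue for flow-through, with the marker shape giving the replicate. Neutrophil, monocyte and microglia lists lie to the right in CD45, and astrocyte, oligodendrocyte and neuron lists lie to the right in the flow-through. The neuroblast list overlaps, at 597 to 855 CPM in CD45 and 716 to 882 CPM in the flow-through, although 6 of its 7 genes were higher in the flow-through.

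Other marker lists were less simple to read against the labels. The flow-through had passed CD31 beads as well as CD45 beads, so its label as all other cells does not cover endothelial cells. Endothelial markers were higher in CD45 for 10 of 12 genes, with 9 past 4-fold, and summed to 490.0 to 524 CPM there against 60.3 to 81.2 CPM in the flow-through. Pecam1, which monocytes and neutrophils also carry, was part of these sums. It measured 179, 178 and 207 CPM in CD45 and 2.74, 5.04, 5.34 and 1.55 CPM in the flow-through. Cldn5, a tight junction protein of brain endothelium, measured 23.9, 26.4 and 22.9 CPM in CD45 and 4.72, 4.64, 5.3 and 3.32 CPM in the flow-through. Red cell genes went the other way, 8775 to 24493 CPM in the flow-through and 1167 to 1976 CPM in CD45, all 6 higher in the flow-through. Oligodendrocyte markers were present in CD45 at 488 to 2059 CPM, with the highest value in replicate 3, where Mbp, a myelin protein, measured 294, 254 and 1439.9 CPM in CD45 replicates 1 to 3. Without CD45 replicate 3 the log2 fold change of Mbp moved from -4.05 to -5.34. The part of these cells in the results below was not tested.

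Among the programmes as listed here, receptors had the largest share of CD45 calls, 58.8%. The lists were chosen with earlier results of these data known, and several receptor lists are of leukocyte receptors. Shares and medians of a whole programme, here and below, therefore depend on which lists were drawn up. Of 291 receptor genes tested in 10 lists, 171 were higher in CD45 and 108 higher in the flow-through, and 156 and 76 of them were past 4-fold, with a median log2 fold change of 3.02 beside -0.02 over all genes. Most lists fell into a CD45 set (innate sensing, Fc and complement, leukocyte regulatory, cytokine and chemoattractant receptors) and a flow-through set (receptor tyrosine kinases, neurotransmitter receptors, adhesion and orphan receptors), as the plot of list members shows. Scavenger and lipoprotein receptors, and purinergic receptors with ectonucleotidases, were more divided and were placed in neither set.

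**Figure D2:**
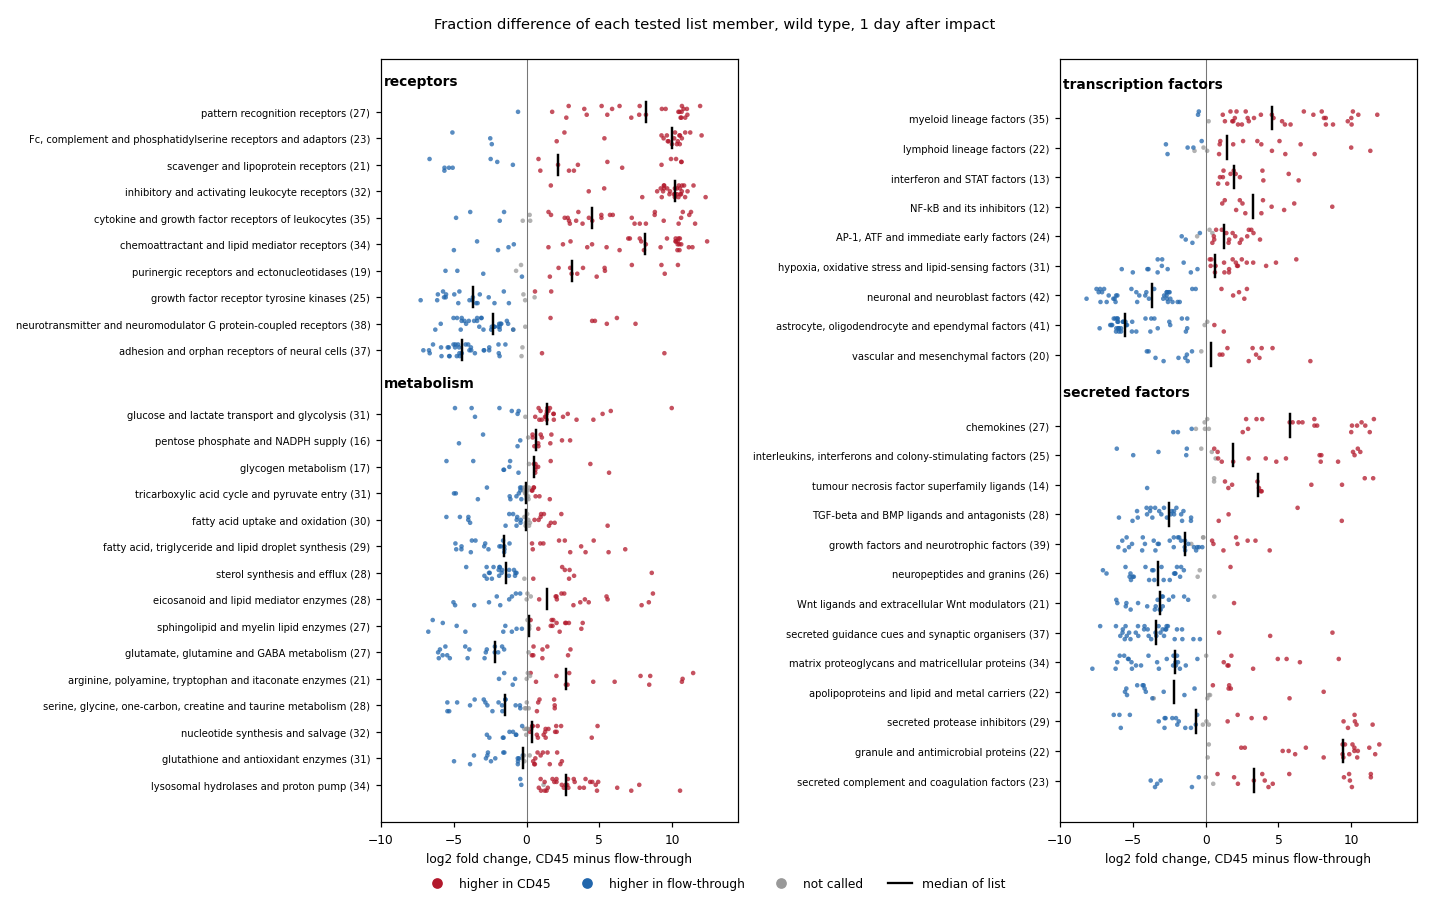
Log2 fold change (CD45 minus flow-through) of every tested member of 47 gene lists in wild-type libraries, 1 point per gene, coloured by call, with the number tested in parentheses and the list median as a black bar. Inhibitory and activating leukocyte receptors, chemokines and granule proteins have medians of 10.19, 5.77 and 9.43, neuronal and glial factors -3.72 and -5.51, and the members of most metabolic lists lie on both sides of 0.

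All 32 inhibitory and activating leukocyte receptors were higher in CD45, 31 past 4-fold, with a median log2 fold change of 10.19. Among pattern recognition receptors, which sense microbial and damaged-cell molecules, 26 of 27 were higher in CD45 and 1 in the flow-through. Cd14, the co-receptor that hands lipopolysaccharide to TLR4, measured 4472, 4411 and 6704 CPM in CD45 and 30.6, 19.3, 27.6 and 17.9 CPM in the flow-through (log2 difference 7.77 ± 0.27, SE, adjusted p = 2.7e-10 by edgeR). The exception was Tlr3, the sensor of double-stranded RNA, at 21.3, 21.8 and 19.2 CPM in CD45 and 34.7, 31.9, 33.4 and 24.9 CPM in the flow-through, where every flow-through library was above every CD45 library. Fc, complement and phosphatidylserine receptors with their adaptors were higher in CD45 for 20 of 23 genes. Their signalling adaptors Tyrobp and Fcer1g reached 1825 and 887 RPKM in CD45 (CPM per kilobase of exon, used where genes are compared with each other). The 3 exceptions, Axl, Tyro3 and Adgrb1 (the last named after its values were seen), are receptors that recognise dying cells, and Axl and Tyro3 are described with their family below.

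Receptors of leukocytes for cytokines and growth factors were higher in CD45 for 28 of 35 genes, and scavenger and lipoprotein receptors for 13 of 21, with 8 higher in the flow-through. Receptors for chemoattractants and lipid mediators were higher in CD45 for 29 of 34 genes, 28 of them past 4-fold. Cxcr2, which guides neutrophils, measured 1591, 1345 and 1507 CPM in CD45 and at most 1.55 CPM in any flow-through library. Ccr2, which guides monocytes, measured 631, 689.7 and 273 CPM in CD45, lowest in replicate 3, and 0, 0.221, 0 and 0.132 CPM in the flow-through. Hcar2, a receptor for butyrate, niacin and ketone bodies, measured 897, 659 and 1693 CPM in CD45, where replicate 3 was the highest, and 0.635 to 1.14 CPM in the flow-through. The sphingosine 1-phosphate receptor S1pr3 was in the opposite set, at 4.85 to 5.87 CPM in CD45 and 150.0 to 212 CPM in the flow-through (log2 fold change -4.99 ± 0.16, SE, edgeR adjusted p = 7.2e-11). Of purinergic receptors and ectonucleotidases, 13 of 19 were higher in CD45 and 4 higher in the flow-through. P2ry6, P2ry12 and P2ry13, receptors for extracellular nucleotides, were past 4-fold higher in CD45, and Adora1, an adenosine receptor, was past 4-fold higher in the flow-through at 124 ± 8.63 against 2.61 ± 0.835 CPM (SD, n = 4 and 3).

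Neurotransmitter receptors of the G protein-coupled class were higher in the flow-through for 30 of 38 genes and higher in CD45 for 6, 5 of those past 4-fold. Hrh2, the H2 histamine receptor, measured 105, 87.2 and 77.4 CPM in CD45 and 4.21, 4.01, 3.71 and 3.91 CPM in the flow-through. Hdc, the enzyme that makes histamine, was also higher in CD45, at 696, 671 and 1450.4 CPM with the highest value in replicate 3, against 18.7, 22.5, 19.1 and 19.4 CPM. It was the only one of 6 mast cell and basophil markers with enough counts to be tested.

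In the flow-through set, 20 of 25 receptor tyrosine kinases were higher in the flow-through, 17 past 4-fold, and 2 were higher in CD45. Ntrk2, the receptor for brain-derived neurotrophic factor, measured 609.9, 525, 586 and 548 CPM in the flow-through and 9.97, 13.2 and 12.9 CPM in CD45. Erbb4, a neuregulin receptor, had the lowest log2 fold change of all receptors tested, -7.28 ± 0.27 (SE, edgeR adjusted p = 3.2e-10). Both higher in CD45 were Igf1r and Met. Igf1r, the insulin-like growth factor 1 receptor, measured 229.6, 196 and 399.9 against 70.7, 84.6, 93 and 92.1 CPM. Met, the receptor of hepatocyte growth factor, measured 72.8 ± 12.1 against 48.8 ± 6.27 CPM (SD, n = 3 and 4). The call of Met was lost with upper-quartile scaling, and its direction flipped with library totals only (log2 -0.05). Adhesion and orphan receptors of neural cells were higher in the flow-through for 33 of 37 genes. The highest of these per length was Gpr37l1, an orphan receptor of astrocytes, at 128 RPKM in the flow-through and 2.18 RPKM in CD45. Gpr34, a lysophosphatidylserine receptor of microglia on that list, measured 80.0, 80.2 and 48.9 CPM in CD45 and 0.0794, 0.0736, 0.163 and 0.0658 CPM in the flow-through.

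Several pathways had a ligand in 1 fraction and its receptor in the other. Genes of these pathways that lie outside the rule for named genes (Il1rl1, Cx3cl1, Osm, Osmr, Il1r1, Tnfrsf1b, Hbegf, Egfr, Bdnf and Cxcl2) were chosen after their values were seen. Il33, an alarmin stored in nuclei, measured 627, 633, 819 and 690.2 CPM in the flow-through and 12.3, 8.96 and 8.94 CPM in CD45, and its receptor Il1rl1 measured 7.83, 7.01 and 13.7 CPM in CD45 and 0.714, 0.147, 0.163 and 0.0658 CPM in the flow-through. Both genes were past 4-fold in opposite directions. Cx3cl1, the membrane chemokine of neurons, was higher in the flow-through at 35.3, 27.6, 22.7 and 26.2 against 4.12, 8.32 and 9.93 CPM, and its receptor Cx3cr1 higher in CD45 by 10.62 ± 0.21 (log2, SE, edgeR adjusted p = 2.7e-12). Csf1r, on which microglia depend for survival, measured 1654 to 1922 CPM in CD45 and 0.937 to 1.15 CPM in the flow-through. Of its ligands, Il34 was higher in the flow-through at 11.8, 12.3, 11.6 and 12.4 against 0.783, 1.85 and 1.14 CPM, whereas Csf1 was higher in CD45 at 1099, 896 and 1380.2 against 142, 156, 152 and 134 CPM. Csf1 still made up 81.8% of the summed RPKM of these ligands in the flow-through.

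In the reverse direction, Osm, a cytokine of the interleukin 6 family, measured 376, 429 and 407 CPM in CD45 and at most 0.331 CPM in the flow-through, and its receptor subunit Osmr measured 183, 143, 186 and 154 CPM in the flow-through and 11.4, 12 and 10.7 CPM in CD45. Il1b, the main secreted interleukin 1, measured 4472, 3987 and 2821 CPM in CD45 and 2.86, 4.2, 2.4 and 3.98 CPM in the flow-through. Its signalling receptor Il1r1 was higher in the flow-through, at 44.4, 35, 42.8 and 34.4 against 15.2, 12.4 and 12.6 CPM, and the decoy receptor Il1r2 higher in CD45, at 762, 686 and 825 against 1.94, 1.99, 1.38 and 1.48 CPM. Tnf measured 644, 655 and 792 CPM in CD45 and 0.238 to 0.461 CPM in the flow-through. Of its receptors, Tnfrsf1b was almost wholly in CD45 (918 to 1756 against 7.14 to 9.86 CPM), and Tnfrsf1a was read from both fractions (424 to 460.3 against 119.6 to 161 CPM).

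Other pathways had ligand and receptor in the same fraction. Tgfa and Hbegf, ligands of the epidermal growth factor receptor, measured 316, 324, 381 and 348 and 179, 121, 138 and 108 CPM in the flow-through, and Egfr 81.9, 86.4, 91.4 and 91.5 CPM there against 2.14, 3.7 and 4.89 CPM in CD45. Bdnf measured 49.6, 27.6, 35.6 and 26.5 CPM in the flow-through, and its receptor Ntrk2, given above, lay in the same fraction. Cxcl2, a ligand of Cxcr2, measured 1340.5, 1229 and 1425 CPM in CD45 and 18.1, 21.8, 22.9 and 34.9 CPM in the flow-through. Cxcl1, another ligand of Cxcr2, was not called with TMM, at 98.4, 78.3 and 75.5 CPM in CD45 and 63.7, 76.1, 70.8 and 102 CPM in the flow-through, and the groups overlapped. With library totals only it was called higher in the flow-through (log2 -0.52).

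**Figure D3:**
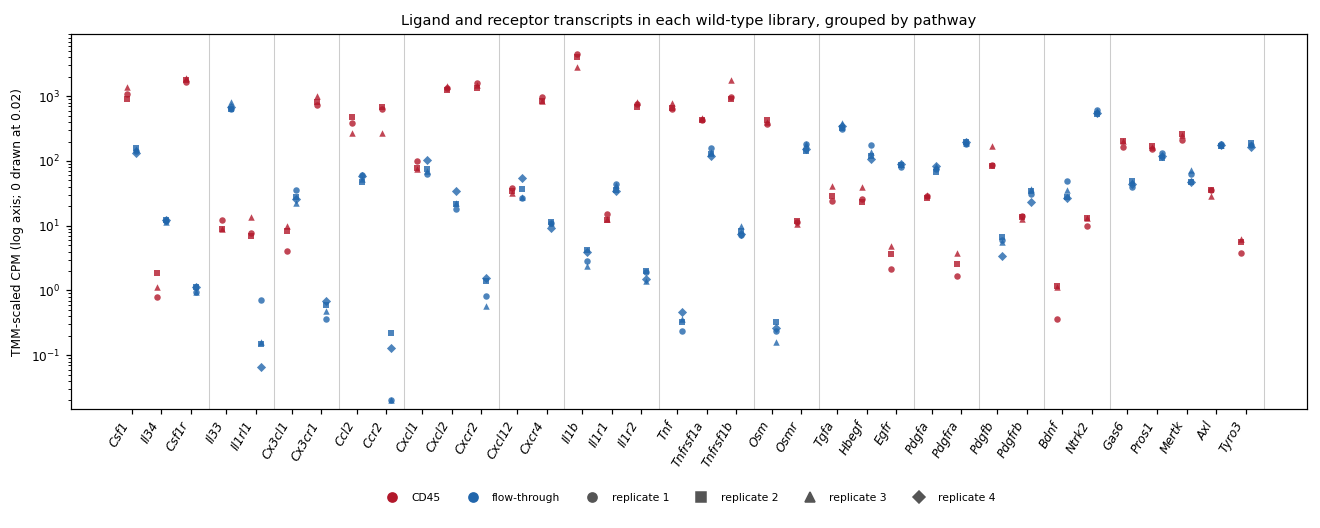
TMM-scaled CPM of ligand and receptor genes on a log axis (0 drawn at 0.02), 1 point per wild-type library, with genes of a pathway between grey lines. Il33 and Il1rl1, Cx3cl1 and Cx3cr1, and Osm and Osmr lie in opposite fractions, and Tgfa, Hbegf and Egfr lie in the flow-through.

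Metabolic genes were divided more evenly and by smaller steps than receptors. Of 410 tested in 15 lists, 196 were higher in CD45 and 166 higher in the flow-through, with 79 and 73 past 4-fold and a median log2 fold change of 0.17. The scaling moves these medians, and for glycogen metabolism, nucleotide synthesis and sphingolipid enzymes the sign of the median changed, from 0.51, 0.35 and 0.19 with TMM to -0.12, -0.28 and -0.43 with library totals only.

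The lysosome was the largest metabolic list in CD45. Of 34 hydrolases and proton pump genes, 31 were higher in CD45, 19 past 4-fold, and their summed level was 38595 to 40178 CPM in CD45 and 4784 to 5616 CPM in the flow-through. Ctss, a cathepsin of antigen-presenting cells, measured 2415, 2163 and 1282 CPM in CD45 and 1.39, 1.58, 0.692 and 1.51 CPM in the flow-through, which separates the fractions more than any other member of the list. Ctsb and Psap, a cathepsin and the precursor of the saposins, were called in the same direction but were also read from the flow-through, at 1057, 873, 919 and 833 and 1086, 942, 1036 and 941 CPM. Ctsb shares 12.8% of its exon bases with other annotated genes, and since the strand setting of the counting is not given, such counts are uncertain. Over 10% of exon bases are shared in the same way for Adora1, Alox5ap, Arg2, Bdnf, Cebpb, Cebpd, Ch25h, Csf1r, Hmgcs1, Pdgfa, Pfkm, Spp1, Tgfb3 and Tnfsf9.

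Glycolysis was higher in CD45 for 23 of 31 genes and higher in the flow-through for 7, with a median log2 fold change of 1.37, which was 0.75 with library totals only. Genes of both directions were often paralogues of 1 step. Hk3, a hexokinase of myeloid cells, measured 384, 362 and 644 CPM in CD45 and 0.317, 0.773, 0.448 and 0.296 CPM in the flow-through, and made up 62.6 to 71.7% of the summed hexokinase RPKM in CD45 libraries and 0.443 to 1.21% in flow-through libraries, where Hk1 made up 77.2 to 83%. By level Hk1 and Hk2 were also higher in CD45 with TMM, at 22.2 against 14.7 RPKM and 38.9 against 3.61 RPKM. Hexokinases thus differed in share and not in direction, although the direction of Hk1 turned with library totals only. Of the phosphofructokinases, Pfkl held 61.2 to 64.4% in CD45 and Pfkm 57.7 to 69.9% in the flow-through. Ldhb, the lactate dehydrogenase that favours pyruvate, measured 151, 118, 119 and 112 CPM in the flow-through and 8.93, 8.66 and 9.83 CPM in CD45, 45.9 to 49.7% and 1.76 to 1.86% of both lactate dehydrogenase genes. Aldoc, the aldolase of astrocytes, held 33.3 to 40.2% in the flow-through and 0.902 to 0.925% in CD45.

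Lactate carriers and glycogen phosphorylases changed over in the same way. Slc16a3 (MCT4), a low-affinity carrier of lactate-exporting cells, measured 583, 562 and 845 CPM in CD45 and 10.4, 8.65, 16.3 and 12.8 CPM in the flow-through. Slc16a1 (MCT1) measured 318, 212, 242 and 220.5 CPM in the flow-through and 72, 66.2 and 66.4 CPM in CD45, so that Slc16a3 was 85.9 to 90.8% of the 3 carriers in CD45 and Slc16a1 90.7 to 94.5% in the flow-through. Pygl, the liver-type phosphorylase, was 76.2 to 80.5% of its family in CD45 and Pygb, the brain type, 84 to 86.9% in the flow-through. Pdk4, a kinase that shuts pyruvate out of the citric acid cycle, was 31 to 39.7% of its family in the flow-through and 1.59 to 2.17% in CD45. No share overlapped between the fractions for these genes. Shares of a family do not depend on the scaling of libraries.

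**Figure D4:**
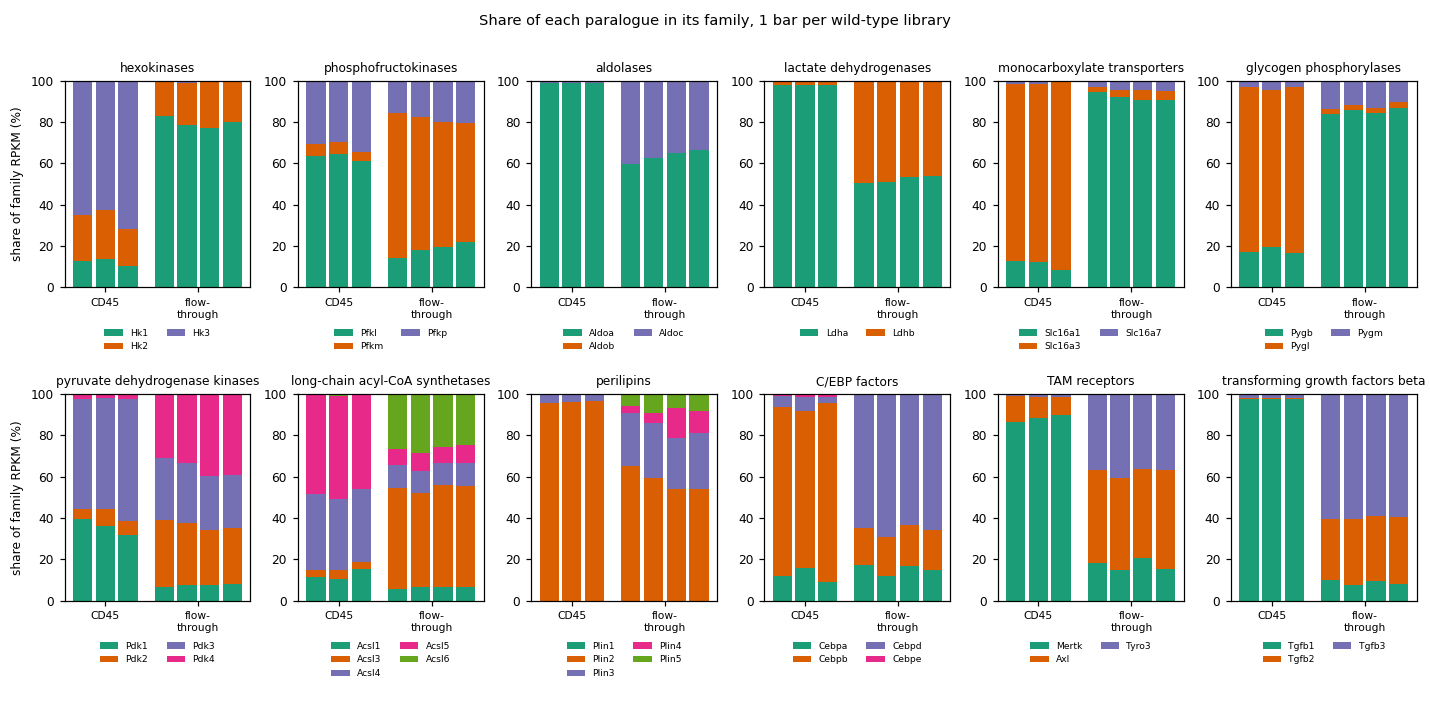
Share of each paralogue in the summed RPKM of its family (percent), 1 stacked bar per wild-type library, CD45 replicates 1 to 3 on the left and flow-through replicates 1 to 4 on the right. Among the 12 families drawn, 1 member leads in every CD45 library and another in every flow-through library in the hexokinases, phosphofructokinases, monocarboxylate transporters, glycogen phosphorylases, acyl-CoA synthetases, C/EBP factors, TAM receptors and transforming growth factors beta.

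Genes of the citric acid cycle and pyruvate entry had no common direction with TMM (7 higher in CD45, 12 higher in the flow-through and 12 not called of 31, median -0.05), and the median was -0.67 with library totals only. Fatty acid uptake and oxidation gave 10, 13 and 7 of 30. The pentose phosphate list gave 11 of 16 higher in CD45 and 4 higher in the flow-through, the glutathione and antioxidant list 12 and 15 of 31, and the serine, one-carbon and creatine list 6 and 18 of 28. Among the long-chain acyl-CoA synthetases, which activate fatty acids, Acsl5 (45.5 to 50.1% of the family) led in CD45, and Acsl3 (45.7 to 49.5%) and Acsl6 (24.7 to 28.5%) led in the flow-through.

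Of genes of fatty acid, triglyceride and lipid droplet synthesis, 12 of 29 were higher in CD45 and 17 higher in the flow-through. Plin2, a coat protein of lipid droplets, measured 1808, 1765 and 2739 CPM in CD45 and 101, 82.4, 78.7 and 82.6 CPM in the flow-through (log2 fold change 4.61 ± 0.18, SE, edgeR adjusted p = 4.5e-10). Hilpda, a droplet protein induced by hypoxia that inhibits lipolysis, measured 305, 264 and 421 and 7.14, 6.88, 6.44 and 6.15 CPM. Scd2, a fatty acid desaturase, measured 2299.7, 1984, 2462 and 2256 CPM in the flow-through and 142, 166 and 191 CPM in CD45, and its paralogue Scd1 392, 325, 354 and 261 and 11.4, 12.3 and 46.6 CPM, with the highest CD45 value in replicate 3. Without that library the log2 fold change of Scd1 moved from -3.83 to -4.83. Of 28 genes of sterol synthesis and efflux, 20 were higher in the flow-through, among them Hmgcs1 and Msmo1 of the synthesis pathway at 387 ± 62.7 and 267 ± 76.5 CPM against 57.7 ± 5.14 and 40.2 ± 2.14 CPM (SD, n = 4 and 3). The 7 higher in CD45 included genes that oxidise or export sterols, Ch25h at 153, 115 and 205 against 0.317, 0.626, 0.57 and 0.132 CPM and Abca1 at 1111, 1263 and 1488 against 114, 124, 152 and 147 CPM. The summed level of that list was nonetheless higher in CD45, 3673 to 4091 against 2342 to 3026 CPM.

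Enzymes of eicosanoids and other lipid mediators were higher in CD45 for 15 of 28 genes and higher in the flow-through for 10. Alox5ap, which presents arachidonic acid for leukotriene synthesis, measured 406, 400.3 and 312 CPM in CD45 and 1.15, 1.29, 1.1 and 0.888 CPM in the flow-through, and Tbxas1, thromboxane synthase, 108, 115 and 115 and 0.159, 0.331, 0.163 and 0.395 CPM. Ptgs2, the inducible cyclooxygenase, was higher in CD45 at 701, 750.0 and 448 against 77.8, 66.4, 67.3 and 60.4 CPM and was the larger cyclooxygenase share in both fractions. Ptgds, prostaglandin D2 synthase, lay in the flow-through at 402, 344, 353 and 331 against 8.51, 11.3 and 13.1 CPM. Sphingolipid and myelin lipid enzymes had no common direction, with 13 of 27 higher in CD45, 10 higher in the flow-through and a summed level of 3429 to 3813 CPM in CD45 against 1826 to 1980.2 CPM. The members with the lowest values, Fa2h, which hydroxylates fatty acids, and Ugt8a, which makes galactosylceramide, had log2 fold changes of -6.75 ± 0.14 and -6.45 ± 0.15 (SE, edgeR adjusted p = 2.9e-12 and 8.6e-12).

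Of enzymes of arginine, polyamines, tryptophan and itaconate, 14 of 21 were higher in CD45, 11 past 4-fold, and 4 higher in the flow-through. Arg1, which splits arginine into ornithine and urea, measured 3145, 3244 and 2414 CPM in CD45 and 0.794, 1.36, 0.937 and 1.09 CPM in the flow-through (log2 difference 11.44 ± 0.22, SE, adjusted p = 2.4e-12 by edgeR). Acod1, which makes itaconate, measured 694, 587 and 2019 CPM in CD45, with replicate 3 highest, and 0.556, 0.7, 0.367 and 0.921 CPM in the flow-through. Without CD45 replicate 3 its log2 fold change moved from 10.72 to 9.92. Arg2, the mitochondrial arginase, was higher in CD45 as well, at 393, 381 and 411 against 1.23, 1.21, 0.937 and 0.987 CPM. Genes of glutamate, glutamine and GABA metabolism were higher in the flow-through for 18 of 27 and higher in CD45 for 8. Slc1a2, the main glutamate transporter of astrocytes, measured 1990.0, 1603, 2013 and 1692 CPM in the flow-through and 30.1, 36.6 and 33.8 CPM in CD45. Glul, glutamine synthetase, measured 1307, 1149.7, 1514 and 1223 and 401, 395 and 419.8 CPM, a smaller difference of -1.68 ± 0.12 on the log2 scale (SE, edgeR adjusted p = 1.2e-07). Against its list, Slc6a13, a GABA and taurine transporter that also stands on the fibroblast marker list, was higher in CD45 at 3.34, 2.87 and 6.71 against 0.754, 0.552, 0.326 and 0.724 CPM.

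Transcription factors numbered 239 tested in 9 lists, 123 higher in CD45 and 106 higher in the flow-through, with 72 and 73 past 4-fold. Myeloid lineage factors were higher in CD45 for 32 of 35 genes and lymphoid factors for 14 of 22, with 5 higher in the flow-through. Vascular and mesenchymal factors had no common direction, with 10 of 20 higher in CD45 and 9 higher in the flow-through. The median of vascular and mesenchymal factors was 0.33 with TMM and changed sign with upper-quartile scaling (-0.01), library totals only (-0.29), DESeq2, no filter on low counts, and without CD45 replicate 1. Spi1 (PU.1), the ETS factor on which macrophage and neutrophil development depends, measured 475, 472 and 582 CPM in CD45 and 0.159, 0.884, 0.367 and 0.395 CPM in the flow-through (log2 difference 10.11 ± 0.30, SE, adjusted p = 2e-10 by edgeR). Ikzf1 and Runx3, lymphoid and myeloid factors, measured 226 ± 11.4 and 150.1 ± 3.33 CPM in CD45 (SD, n = 3) and at most 0.368 and 0.0658 CPM in any flow-through library. Cebpe, a factor of late granulocyte maturation, measured 5.95, 6.96 and 9.67 CPM in CD45 and had no count in the flow-through, at least 269-fold higher against a floor of 3 counts over the 4 libraries. Cebpb made up 75.7 to 86.5% of the C/EBP family in CD45. In the flow-through Cebpd made up 63.3 to 69%, at 113, 152, 106 and 117 CPM there and 97.4, 90.7 and 76 CPM in CD45.

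All 12 genes of NF-kB and its inhibitors were higher in CD45, 9 past 4-fold, as were all 13 interferon and STAT factors tested, 5 past 4-fold. Nfkbia, the inhibitor that NF-kB itself induces, measured 1400.3, 1246 and 1732 CPM in CD45 and 87, 107, 87.2 and 99.9 CPM in the flow-through. Stat6, which acts downstream of interleukin 4, measured 512, 484 and 606 and 7.54, 10.3, 9.61 and 13.4 CPM. Stat3 was read from both fractions at 778, 690.0 and 969.9 and 437, 394, 441 and 376 CPM (log2 difference 0.98 ± 0.13, SE, adjusted p = 2.1e-05 by edgeR). Hypoxia and stress factors were mixed, 19 higher in CD45 and 12 higher in the flow-through of 31. Hif1a, the oxygen-sensing factor, measured 842, 843 and 778 and 149, 139.9, 153 and 147 CPM and Nfe2l2 (NRF2), the antioxidant factor, 728, 559 and 835 and 86.5, 60.9, 75.8 and 71.5 CPM in CD45 and the flow-through, while Thra, a thyroid hormone receptor, was higher in the flow-through at 166, 179, 162 and 180.1 against 15.5, 20.2 and 16.6 CPM.

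Immediate early factors were abundant in both fractions. Fos was not called, at 857, 968 and 647 CPM in CD45 and 639, 700.4, 664 and 741 CPM in the flow-through (edgeR adjusted p = 0.094), and the groups overlapped. Its log2 fold change was 0.26 with TMM and -0.35 with library totals only. Without CD45 replicate 3 Fos was called higher in CD45 (log2 0.40, edgeR adjusted p = 0.0054). Junb and Atf3 were past 4-fold higher in CD45, at 1723 and 854 CPM on average against 196 and 118 CPM. Of 24 genes on this list 17 were higher in CD45 and 4 higher in the flow-through.

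Factors of neurons and neuroblasts were higher in the flow-through for 37 of 42 genes, and factors of astrocytes, oligodendrocytes and ependymal cells for 37 of 41, with median log2 fold changes of -3.72 and -5.51. Olig1 and Sox10, factors of the oligodendrocyte lineage, measured 249.9 ± 16.4 and 229 ± 19.7 CPM in the flow-through and 2.91 ± 0.601 and 3.6 ± 0.438 CPM in CD45 (SD, n = 4 and 3). Sox9, of astrocytes and progenitors, measured 119, 124, 135 and 112 CPM and Foxj1, the factor of motile cilia, 143, 201, 159.8 and 187 CPM in the flow-through. Dlx1 and Sp8, factors of interneurons and their migrating precursors, measured 98.9, 117, 95.9 and 84.5 and 20.3, 25.9, 19.8 and 19 CPM there, and Dlx1 at most 0.94 CPM in CD45. Against this list, Mef2a, which neurons and myeloid cells both use, was higher in CD45 at 428, 411 and 318 CPM against 74.1, 73.3, 85.3 and 82.8 CPM, as was its paralogue Mef2d.

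Promoters were searched for short motifs of factors in these lists, as a description. Of the genes tested, 12472 have a RefSeq promoter in GRCm38.p6, 15909 promoters in all, here 250 bases before to 50 bases after a transcription start. The letters GAGGAAGT, a core bound by PU.1 and other ETS factors, stood on either strand in at least 1 promoter of 153 of 1557 genes past 4-fold higher in CD45 (9.83%), of 46 of 2373 genes past 4-fold higher in the flow-through (1.94%) and of 452 of all 12472 genes (3.62%). The letters GTTGCCATG, the left part of the X-box bound by RFX factors of ciliated cells, stood in promoters of 4 of these 1557 genes (0.257%), 39 of 2373 (1.64%) and 100 of all (0.802%). TTCAGCACC, part of the element bound by the neuronal repressor REST, stood in 0.45, 0.927 and 0.505%. GAAANGAAA, repeats of GAAA with 1 base between them, stood in 4.5, 2.78 and 3.02%. That spacing is not the one of interferon response elements, so these shares do not count such elements. AACAATGG, a SOX site, stood in 1.03, 0.969 and 0.818%, and TTGCGCAA, a C/EBP palindrome, in 0.578, 0.211 and 0.329%. None of the 6 strings contains another, and a match is a description, not a bound site.

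Stretches around such matches are shown for 4 genes with the PU.1 letters that are described below (Pf4, S100a8, Mmp8 and Spp1, of monocytes, neutrophils and macrophages) and 2 with the RFX letters (Fez1, a neuronal transport adaptor, and Cfap161, a cilia protein, chosen after their values were seen). Each is read 5′ to 3′ on the gene's strand from RefSeq, GRCm38.p6, in lower case, with the match in capitals, and a match on the other strand appears as its reverse complement.

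Pf4, chr5:90772385-90772434, + strand: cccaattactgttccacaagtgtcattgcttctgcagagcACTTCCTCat
S100a8, chr3:90668859-90668946, + strand: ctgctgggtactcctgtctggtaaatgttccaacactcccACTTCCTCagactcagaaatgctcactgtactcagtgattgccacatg
Mmp8, chr9:7558179-7558255, + strand: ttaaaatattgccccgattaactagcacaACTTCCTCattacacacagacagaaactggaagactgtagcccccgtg
Spp1, chr5:104434958-104435045, + strand: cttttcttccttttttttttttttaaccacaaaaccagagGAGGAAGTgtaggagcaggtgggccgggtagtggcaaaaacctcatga
Fez1, chr9:36821804-36821890, + strand: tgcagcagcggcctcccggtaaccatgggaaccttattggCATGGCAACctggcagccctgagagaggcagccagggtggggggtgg
Cfap161, chr7:83794840-83794921, - strand: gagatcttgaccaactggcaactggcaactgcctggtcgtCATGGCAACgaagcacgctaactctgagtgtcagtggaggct

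The PU.1 letters of Pf4 end 2 bases before the transcription start, and those of S100a8, Mmp8 and Spp1 end 164, 213 and 105 bases before it. Mmp8, the neutrophil collagenase, measured 103, 102 and 169 CPM in CD45 and at most 0.159 CPM in the flow-through. Fez1 averaged 5.78 CPM in CD45 and 280.5 CPM in the flow-through, and Cfap161 0.257 and 11.2 CPM.

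Secreted factors leaned to the flow-through by number, with 123 higher in CD45 and 195 higher in the flow-through of 345 tested, 92 and 118 past 4-fold and a median log2 fold change of -1.41. Cytokine and granule lists formed the CD45 side. Chemokines were higher in CD45 for 19 of 27 genes, all 19 past 4-fold. Ccl6 and Ccl3 had 926 and 1049 RPKM in CD45 and 0.369 and 0.621 RPKM in the flow-through. Ccl2, the ligand of Ccr2, was read from both, at 382, 472 and 273 CPM in CD45 and 60.2, 47.9, 53 and 57.9 CPM in the flow-through. Pf4, a platelet and macrophage chemokine, measured 297, 273 and 150.1 CPM in CD45 and at most 0.147 CPM in the flow-through. The list of 6 platelet markers, among which only Ppbp and Itga2b had enough counts to be tested, summed to 49.1 to 90.2 CPM in CD45, and Itga2b was higher in the flow-through at 10.3, 15.8, 13 and 15.5 against 4.02, 3.65 and 5.82 CPM.

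Of interleukins, interferons and colony-stimulating factors, 17 of 25 were higher in CD45 and 5 higher in the flow-through. Il1rn, the antagonist of interleukin 1, measured 1646, 1442 and 2464 CPM in CD45 beside the Il1b values given above, and 1.75, 1.33, 1.22 and 1.84 CPM in the flow-through. Mif, a pleiotropic cytokine, was read from both fractions at 150.2, 179.9 and 179 and 102, 92, 90.7 and 90.6 CPM (log2 difference 0.86 ± 0.10, SE, adjusted p = 6.1e-06 by edgeR). Of ligands of the tumour necrosis factor family, 11 of 14 were higher in CD45 and 1 higher in the flow-through. Ltb, lymphotoxin beta, measured 112, 98.4 and 93.4 CPM and Tnfsf9, the ligand of 4-1BB, 97.9, 78.9 and 79.1 CPM in CD45, against 0.0794 to 0.263 and 5.2 to 6.6 CPM. Granule and antimicrobial proteins were higher in CD45 for 20 of 22 genes, all past 4-fold. S100a8 and S100a9, the calprotectin subunits of neutrophils, measured 2172, 1601 and 1726 and 3786, 2773 and 4494 CPM in CD45 and at most 2.58 and 3.94 CPM in the flow-through. Retnlg, a neutrophil resistin-like protein, measured 60.8, 65.8 and 316 CPM in CD45, with replicate 3 highest, and at most 0.0815 CPM in the flow-through.

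The 2 genes of the granule list that were not called are secreted by glia as well. Lcn2, lipocalin 2, measured 392, 353 and 476 CPM in CD45 and 452, 294, 377 and 280.1 CPM in the flow-through (log2 fold change 0.21 ± 0.17, SE, edgeR adjusted p = 0.26). Chil1, a chitinase-like protein of neutrophils and reactive astrocytes, measured 827, 607 and 811 CPM and 952, 576, 631 and 561 CPM (edgeR adjusted p = 0.51). Both groups overlapped with TMM, and with library totals only both genes were called higher in the flow-through (log2 -0.41 and -0.48). Together they make up most of the 944 to 1485 CPM of that list in the flow-through.

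Growth factors were split within families. Tgfb1 measured 311, 331 and 431 CPM in CD45 and 5.16, 3.9, 4.77 and 4.18 CPM in the flow-through and was 97.8 to 97.9% of the 3 transforming growth factor beta genes per length in CD45. In the flow-through Tgfb3 was 59 to 60.6% and Tgfb2 29.3 to 32.6%. Pdgfb was 66.9 to 79.7% of the platelet-derived growth factors in CD45, at 86.5, 83.3 and 173 CPM with replicate 3 highest, and Pdgfa 82.8 to 87.5% in the flow-through, at 74.5, 66.9, 85 and 85.1 CPM. Vegfa, the main angiogenic factor, was higher in CD45 at 649.6, 596 and 599 against 121, 109, 179.9 and 131 CPM (log2 fold change 2.18 ± 0.16, SE, edgeR adjusted p = 9.3e-08) but not past 4-fold. Of all 39 growth and neurotrophic factors tested, 8 were higher in CD45 and 28 higher in the flow-through, and of 28 ligands and antagonists of the transforming growth factor and bone morphogenetic protein family 4 and 24.

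The TAM receptors, which recognise phosphatidylserine on dying cells through the bridging ligands Gas6 and Pros1, were divided by member. Mertk, the form of phagocytes, measured 211, 264 and 250.1 CPM in CD45 and 63.3, 47.9, 71.6 and 47.6 CPM in the flow-through, and held 86.4 to 89.7% of the family per length in CD45. Axl measured 35.3, 35.9 and 28.5 and 179.9, 169, 174 and 174 CPM and Tyro3 3.81, 5.65 and 6.13 and 179.6, 189, 179.8 and 163 CPM, and both were past 4-fold higher in the flow-through. Gas6 was higher in CD45 at 162, 206 and 206 against 40.2, 48.4, 47.8 and 44.2 CPM. Pros1 was read from both at 155, 169.8 and 167 and 131, 113, 123 and 117 CPM, and was called higher in CD45 with TMM (edgeR adjusted p = 0.00078). The call of Pros1 was lost with upper-quartile scaling, and its difference turned to log2 -0.18 with library totals only.

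Neuropeptides and granins, Wnt ligands with their modulators, and guidance cues with synaptic organisers were higher in the flow-through for 23 of 26, 19 of 21 and 34 of 37 genes. Cpe, which trims neuropeptide precursors, measured 1489.9, 1103, 1207 and 1179 CPM in the flow-through and 34.3, 40.4 and 47.3 CPM in CD45, and Vgf, a granin-like precursor, 295, 265, 275 and 253 and 3.86, 8.96 and 10.4 CPM. Wnt7a and Wnt7b, ligands that act on brain endothelium, measured 38.7, 35.8, 30.9 and 29.5 and 87.2, 61.3, 67 and 55.2 CPM in the flow-through. The guidance list is an example of 1 gene outweighing the rest: its summed level was 8888 to 10119 CPM in CD45 and 1599 to 1958 CPM in the flow-through, of which Thbs1, thrombospondin 1, a secreted matrix protein, measured 9946, 8682 and 9647 CPM in CD45 and 17.7, 23.3, 23.9 and 25.3 CPM in the flow-through. Npy, neuropeptide Y, was the 1 neuropeptide higher in CD45, at 12, 13.4 and 7.12 against 3.49, 4.31, 3.5 and 2.04 CPM.

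By number of genes, matrix and carrier proteins were more often higher in the flow-through, 24 of 34 and 12 of 22. The summed level of the matrix list was higher in CD45, 17692 to 18527 against 3444 to 3583 CPM. By CPM, which is not scaled to length, its largest member there was Fn1, fibronectin, a matrix protein also made by macrophages. Fn1, named after its values were seen, measured 8031, 8904 and 8158 CPM in CD45 and 69.9, 92.4, 61.3 and 153 CPM in the flow-through. Per length of exon, Spp1 was among the 2 highest members of the list in CD45 and Fn1 was not. Trf, transferrin, an iron carrier made by oligodendrocytes, measured 3467, 3193, 3289.5 and 3106 CPM in the flow-through and 347, 445 and 533 CPM in CD45. Spp1, osteopontin, measured 3626, 2836 and 2761 CPM in CD45 and 82.5, 69.5, 47.1 and 61.8 CPM in the flow-through. Srgn, serglycin, the proteoglycan of leukocyte granules, measured 3350.3, 3317 and 3476 and 6.31, 5.71, 5.66 and 6.25 CPM. Apoe was abundant in both, at 1285, 1517 and 1057 CPM in CD45 and 1100.2, 879.8, 865 and 808 CPM in the flow-through. It was called higher in CD45 with TMM. The call was lost with upper-quartile scaling, without CD45 replicate 2 and in the joint fit with the KO libraries. With library totals only Apoe was at log2 -0.12. Protease inhibitors were divided, 10 higher in CD45 and 16 higher in the flow-through of 29. Serpina3n, an acute-phase inhibitor of reactive astrocytes and oligodendrocytes, measured 807, 608, 879 and 649 and 7.93, 11.8 and 7.9 CPM in the flow-through and CD45, Timp1 348, 265, 218 and 325 and 80.4, 90.4 and 69.5 CPM, and Cst3, cystatin C, 509, 432, 393 and 399.6 and 1783, 1854 and 2319 CPM.

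Complement was divided by component. C1qa, a subunit of the complex that starts the classical pathway, measured 1038, 1211 and 1164 CPM in CD45 and 1.07, 1.03, 1.34 and 1.45 CPM in the flow-through. C4b, the next component, measured 317, 406, 459 and 400.4 CPM in the flow-through and 46.7, 59.7 and 32.5 CPM in CD45. Of coagulation factors, F13a1, which cross-links fibrin, was in CD45 at 761, 979 and 474 against 0.238, 0.147, 0.285 and 0.428 CPM, and F3, tissue factor, which starts coagulation, in the flow-through at 168, 118, 128 and 125 against 8.56, 9.78 and 11.1 CPM. Across that list, 15 of 23 genes were higher in CD45 and 6 higher in the flow-through.

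The 3 CD45 libraries were not equal in makeup. Replicate 3 differed from replicates 1 and 2 by 45.5 and 49.8 chi-square units per degree of freedom, and these by 11.2 from each other. Monocyte genes were lower in replicate 3 (Lyz2, lysozyme, 6655, 6394 and 2997 CPM in replicates 1 to 3), Retnlg and Acod1 were higher, and neutrophil markers summed to 12212, 9452 and 13352 CPM. Fabp5, a fatty acid carrier, measured 600.5, 363 and 198 CPM in CD45 and 219, 217, 161 and 179.6 CPM in the flow-through. Its call higher in CD45 was lost with upper-quartile scaling, library totals only or no filter on low counts. It was also lost without any 1 of CD45 replicate 1 and flow-through replicates 1, 3 and 4. No library was left out on these grounds.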

How the data were processed

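Per the labels' protocols, poly(A) RNA was made into stranded libraries over 14 cycles of PCR. Trim Galore, FastQC, STAR 2.7.9a, DESeq2 and the GRCm38 build are named in the submitters' processing notes. The counting tool and its strand setting stand in no source used here. The authors deposited whole-number counts for 33223 genes, in 1 table per fraction, and a DESeq2-normalized signal, which equals the counts divided by 1 factor per library (largest relative range 9.8e-15). Only the deposited counts were tested. Gene IDs matched GENCODE M21 for 33130 genes, which gave exon lengths and overlaps.

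Differences were fitted on the 7 libraries with edgeR 4.0.16 (TMM, filterByExpr, robust quasi-likelihood test, Benjamini-Hochberg over all tested genes), with glmTreat for the 4-fold threshold, and the code was tested on simulated data. No replicates differed by less than sampling noise (chi-square per degree of freedom 11.2 to 49.8 over 9 pairs). Levels are TMM-scaled CPM, except for the library left out. The SE is the absolute log2 fold change over the square root of F. Named genes are the 6 largest and 6 smallest log2 fold changes past 4-fold in each programme at 10 CPM or more, the 2 highest members per list and fraction by RPKM, and all members of 24 paralogue families and 18 marker lists. Members and lists were chosen with earlier results of these data known. The alternatives were RLE, upper-quartile and library-total scaling, no filter, DESeq2 1.42.0, a joint fit with the KO libraries, other fold thresholds, the library left out entered as labelled, and each replicate left out.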

Additional observations from a re-analysis of the deposited data

Results flagged for a closer look

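In the flow-through groups of 4 libraries, 173 values were tested for 1 library far from the others, and 3 were past Dixon's 95% critical value. Chance flags about 1 in 20 groups, so this number is below what chance gives. Gpr34 measured 0.163 CPM in flow-through replicate 3 and 0.0658 to 0.0794 CPM in the others. Il1rl1 measured 0.714 CPM in flow-through replicate 1 and 0.0658 to 0.163 CPM in the others. Mif measured 102 CPM in flow-through replicate 1 and 90.6 to 92 CPM in the others. The CD45 group of 3 libraries is too small for this rule. The library left out, labelled wild-type flow-through, held 906 CPM of Ptprc without TMM, against at most 1.22 CPM in the other wild-type flow-through libraries.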

How the results depend on the processing

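Without each library in turn, 6531 to 6945 genes were higher in CD45 and 7062 to 7483 higher in the flow-through, and past 4-fold 2227 to 2327 and 3311 to 3569. With library totals only, 4417 genes were higher in CD45. With the library left out entered as labelled, 825 and 4820 genes were called, and 0 and 0 past 4-fold. A 2-fold threshold gave 3763 genes higher in CD45, and a 16-fold threshold 1164 higher in CD45 and 1082 higher in the flow-through. The other scalings, DESeq2, the joint fit and no filter left these counts within 1.5 times. With library totals only, log2 fold changes turned below 0 for Fos (-0.35, not called in either), Apoe (-0.12), Chil1 (-0.48), Cxcl1 (-0.52), Hk1 (-0.03), Lcn2 (-0.41), Met (-0.048) and Pros1 (-0.18). The cause of these reversals was not tested. Of 151 called genes named in the text, 149 kept call and direction without each library in turn, the exceptions being Fabp5 and Apoe, and 146 in every alternative except the library left out entered as labelled, with which 54 did. No paired analysis was possible because the labels give the libraries no replicate numbers that the fractions share. Depth limits genes near 0 in 1 fraction, whose fold change depends on a few counts.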
